A study of Homo sapiens with 35 samples.

Results

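H1 human embryonic stem cells held for 24 h with the agents BRD and CHIR together were set against the same cells held with BRD alone. Bulk RNA-seq gave 2 libraries of each, so the comparison uses 4 of the 35 samples of the study. The first genes of gastrulation were well expressed in one group and undetected or nearly so in the other: EOMES, TBXT, GSC, FOXA2, NODAL, SP5, WNT3 and FGF4 were all over 60 CPM (counts per M counts, M for mega) in both BRD+CHIR libraries and under 1 CPM in both BRD libraries. In all, 24 of 16093 genes (0.149%) were high with BRD+CHIR (20 CPM or more in both libraries) and near absent with BRD (under 1 CPM in both), and 8 (0.0497%) were near absent with BRD+CHIR and high with BRD. These 32 genes were picked by the values of the comparison itself, so nothing is read from their number, and their 24 h values are given as a description without a test.

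H1 is an established stem cell line. CHIR stands for CHIR99021, an inhibitor of the kinase GSK3, given at 3 µM on day 1 in the standard protocol of the labels. BRD takes the place that Activin A (AA, 100 ng/ml in that protocol) has in the standard arm, and JNJ does so in another arm; both are known here only by these code names, and the labels give no dose for them. All cells were plated in stem cell medium and moved to RPMI with low serum and an insulin, transferrin and selenium supplement, and all libraries of 6 h and 24 h came from unsorted cells. The groups used are BRD+CHIR and BRD at 24 h. Beside them stand BRD+CHIR, BRD and untreated cells at 6 h, the arms JNJ+CHIR, AA+CHIR and CHIR at 24 h, and sorted endoderm of 72 h, each with 2 libraries. The 4 arms of 72 h had CHIR on day 1 and then went on without it: BRD+LoAA+CHIR-BRD+LoAA-BRD+LoAA (LoAA is not explained in the labels), BRD+CHIR-BRD-BRD, JNJ+CHIR-JNJ-JNJ and AA+CHIR-AA-AA. The labels do not say whether the libraries of a group came from separate inductions, and their spread could be technical only.

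In the gastrulating embryo, Wnt signalling and the TGF-beta family ligand Nodal switch on the primitive streak, through which cells pass to become mesoderm and definitive endoderm. A Wnt signal, or inhibition of GSK3, stabilizes beta-catenin, which acts on its target genes together with DNA-binding TCF and LEF proteins. Nodal signals through activin receptors and SMAD proteins, which act with FOXH1 and EOMES, and its secreted antagonists CER1 and LEFTY limit it. Stem cells in culture express the pluripotency factors POU5F1, NANOG and SOX2, and SOX2 declines as cells enter the streak.

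Both BRD+CHIR libraries belong to the library series numbered 38 in the titles and both BRD libraries to series 46. CHIR and the library series therefore cannot be told apart in this comparison. The BRD+CHIR libraries held 23.4 and 12.98 M counts, and the BRD libraries held 6.75 and 49.5 M. A single count was worth 0.0431 and 0.0764 CPM with BRD+CHIR, against 0.159 and 0.0226 CPM with BRD. The MTRNR2L genes, nuclear copies of a mitochondrial ribosomal RNA, took 0.269% and 0.313% of counts with BRD+CHIR, against 11.5% and 13.9% with BRD. These 10 genes were left out before scaling. In bulk RNA, fewer cells of a type and less RNA per cell cannot be told apart.

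**Figure D1:**
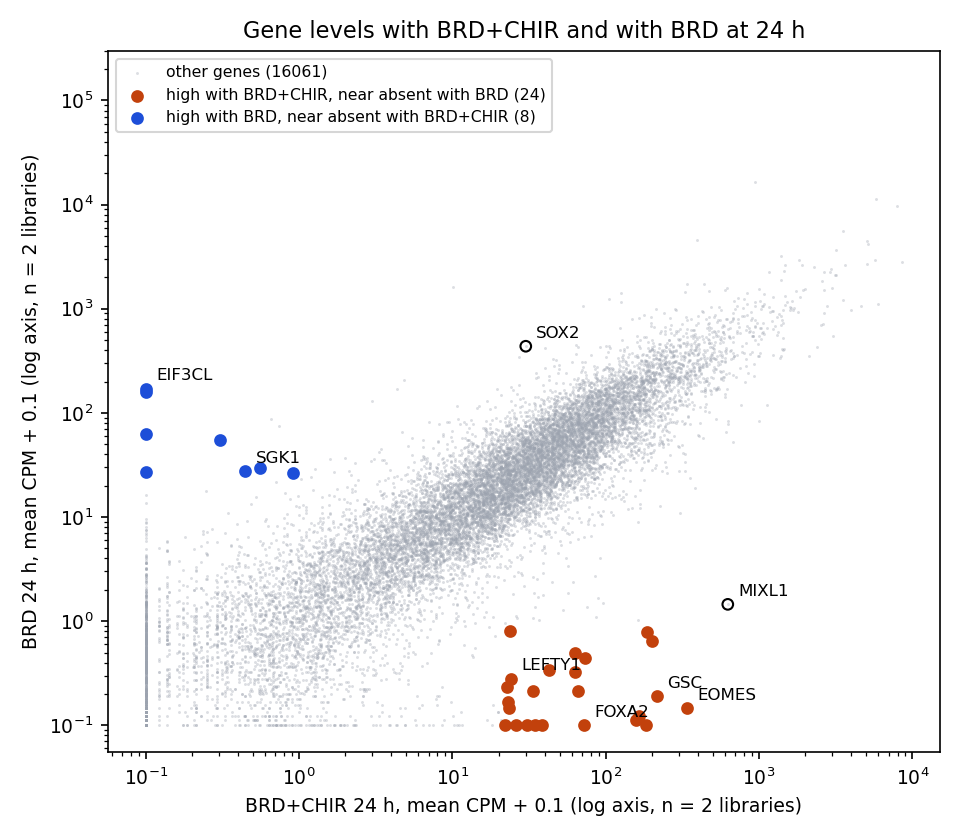
Mean CPM + 0.1 of each gene with BRD+CHIR (horizontal, log axis) and with BRD (vertical, log axis) at 24 h, over 2 libraries each. The 24 genes high with BRD+CHIR lie at the lower right and the 8 genes high with BRD at the upper left; open circles mark MIXL1, just outside the thresholds, and SOX2, expressed in both groups.

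Among the Wnt pathway genes, SP5, a transcription factor gene that Wnt signalling induces directly, stood at 163 and 167 CPM with BRD+CHIR, against 0 and 0.0452 CPM with BRD. The BRD value rests on 2 counts over both libraries, and the ratio of the pooled levels was 4154, with an exact 95% interval of 1150 to 34301 that covers counting error only. SP5 thus had almost no reads in the BRD libraries and near-equal levels in the pair of BRD+CHIR libraries. Untreated cells of 6 h, of series 33 and also without CHIR, had 4.44 and 7.94 CPM. DKK1, a secreted antagonist that blocks the Wnt co-receptor, had 45.6 and 40.01 CPM with BRD+CHIR, against 0.159 and 0.317 CPM with BRD (ratio 147, interval 89.0 to 262). Its relative DKK4 had 33.7 and 42.4 CPM with BRD+CHIR and no count with BRD. Taking 3 counts in the BRD group as the floor, DKK4 was at least 620-fold higher with BRD+CHIR. A pair of Wnt ligand genes completed this group. WNT3, which the mouse embryo needs to form a primitive streak, had 71.1 and 61.3 CPM with BRD+CHIR, against 0.159 and 0.0678 CPM with BRD. WNT5B, a ligand of the branch of Wnt signalling that acts without beta-catenin, had 22.2 and 23.3 CPM with BRD+CHIR, against 0 and 0.271 CPM with BRD. That the groups do not overlap in these 5 genes, or in any other of the 32, is fixed by the thresholds, and nothing is read from it (over all genes tested, both BRD+CHIR libraries lay above both BRD libraries in 35.6% and below in 37.3%).

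The promoters of SP5, DKK1, EOMES and NODAL are shown because the first pair holds the TCF and LEF core motif and the second pair, likewise near absent with BRD, does not; the choice was made after the motif search. Each is the window on GRCh38.p14 from 250 bases before to 50 bases after the start of the gene in RefSeq, written 5′ to 3′ along the gene. For EOMES and NODAL the windows lie wholly inside the GENCODE spans given below, so these annotations place the starts differently. SP5 lies at chr2:170715087-170715386 (plus strand), DKK1 at chr10:52314031-52314330 (plus), EOMES at chr3:27722274-27722573 (minus) and NODAL at chr10:70441632-70441931 (minus). Capitals mark the TCF and LEF core CTTTGA, or TCAAAG where it is on the other strand, and the FOXH1 motif AATCCACA, here as TGTGGATT.
SP5: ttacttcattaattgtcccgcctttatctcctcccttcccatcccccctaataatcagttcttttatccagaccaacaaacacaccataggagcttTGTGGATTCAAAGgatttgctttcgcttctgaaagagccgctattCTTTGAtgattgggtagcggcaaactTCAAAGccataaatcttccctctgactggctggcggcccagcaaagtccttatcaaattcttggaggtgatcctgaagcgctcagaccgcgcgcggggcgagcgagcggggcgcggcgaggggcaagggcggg
DKK1: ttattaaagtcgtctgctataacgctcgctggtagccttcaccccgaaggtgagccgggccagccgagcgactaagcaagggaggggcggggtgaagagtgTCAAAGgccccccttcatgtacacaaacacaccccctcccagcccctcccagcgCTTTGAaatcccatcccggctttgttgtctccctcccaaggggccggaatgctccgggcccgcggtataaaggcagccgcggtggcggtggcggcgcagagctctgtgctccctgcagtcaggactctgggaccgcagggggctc
EOMES: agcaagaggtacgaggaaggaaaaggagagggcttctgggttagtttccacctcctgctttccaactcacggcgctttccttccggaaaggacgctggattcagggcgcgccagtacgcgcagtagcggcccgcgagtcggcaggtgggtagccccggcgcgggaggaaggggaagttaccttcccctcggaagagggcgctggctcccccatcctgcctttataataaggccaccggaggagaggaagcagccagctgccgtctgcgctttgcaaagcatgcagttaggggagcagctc
NODAL: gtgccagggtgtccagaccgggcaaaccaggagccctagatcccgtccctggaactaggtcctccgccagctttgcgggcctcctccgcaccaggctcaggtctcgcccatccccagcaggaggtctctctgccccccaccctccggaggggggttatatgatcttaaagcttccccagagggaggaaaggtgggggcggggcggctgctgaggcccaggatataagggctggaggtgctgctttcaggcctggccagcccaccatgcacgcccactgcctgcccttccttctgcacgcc

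The SP5 window held 3 TCF and LEF cores, beginning at positions -147, -109 and -83 relative to the start, and 1 FOXH1 motif beginning at -154 whose last base is the first base of the core at -147. DKK1 held 2 cores, at -149 and -95. A window was available for 15 of the 24 genes high with BRD+CHIR, and 2 of the 15 held a core, SP5 and DKK1. For comparison, 9.20% of the 12169 windows of genes tested at 24 h held one on either strand. The FOXH1 motif was in 1 of the 15, SP5, against 0.403% of these windows. GGTGTGA (bound by T-box factors, in 2.97% of windows) and ATTTGCAT (the octamer of POU factors, in 1.60%), each searched on both strands, were in none of the 15. None of the 4 motifs was in the 4 windows available for the 8 genes high with BRD. A match is a string of letters and not a measured binding site.

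Of the transcription factors of the streak, EOMES, a T-box factor needed for endoderm (chromosome 3, 27715949 to 27722711), had 351 and 327 CPM with BRD+CHIR, against 0 and 0.0904 CPM with BRD. Over both BRD libraries it had 4 counts, and the ratio was 4324 (interval 1689 to 15869). TBXT, or Brachyury, the T-box factor of the streak and notochord (chromosome 6, 166157656 to 166168700), had 144 and 169 CPM with BRD+CHIR, against 0 and 0.0226 CPM with BRD. That BRD value is a single count. The ratio for TBXT was therefore known only to lie between 1386 and 304916. GSC, a homeobox factor of the anterior streak (chromosome 14, 94768216 to 94770230), had 228 and 201 CPM with BRD+CHIR, against 0 and 0.181 CPM with BRD.

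FOXA2, a forkhead factor of anterior streak and endoderm (chromosome 20, 22581005 to 22585455), had 70.3 and 73.6 CPM with BRD+CHIR and no count in either BRD library, so it was at least 1203-fold higher with BRD+CHIR. EVX1, a homeobox factor of the posterior streak (chromosome 7, 27242700 to 27250493), had 22.7 and 38.9 CPM with BRD+CHIR and also no count with BRD, at least 480-fold higher. Genes of both the anterior and the posterior streak were thus present with BRD+CHIR in the same unsorted RNA. MIXL1, a homeobox factor of the streak, fell just outside the thresholds, with 605 and 645 CPM with BRD+CHIR, against 1.59 and 1.11 CPM with BRD.

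Of the Nodal pathway, the ligand gene NODAL (chromosome 10, 70432315 to 70447951) had 182 and 193 CPM with BRD+CHIR, against 0.955 and 0.430 CPM with BRD, a ratio of 375 (interval 254 to 579). CER1, a secreted antagonist of Nodal (chromosome 9, 14719724 to 14722717), had 74.4 and 51.5 CPM with BRD+CHIR, against 0.637 and 0.158 CPM with BRD. LEFTY1, another antagonist (chromosome 1, 225886282 to 225911382), had 23.3 and 24.8 CPM with BRD+CHIR, against 0 and 0.362 CPM with BRD. A ligand and its feedback antagonists were thus high together, in an arm whose label holds no Activin A. LEFTY1 has a near copy, LEFTY2, to which reads can be assigned in its place; the sum of the pair was 26.7 and 30.4 CPM with BRD+CHIR, against 0.318 and 0.633 CPM with BRD.

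A pair of fibroblast growth factor ligands also met the thresholds. FGF4, a ligand of stem cells and the streak, had 218 and 185 CPM with BRD+CHIR, against 0.318 and 0.769 CPM with BRD. FGF8, which streak cells of the mouse need to migrate, had 24.0 and 22.8 CPM with BRD+CHIR, against 0 and 0.0904 CPM with BRD. The ratio was 289 (interval 209 to 413) for FGF4 and 298 (interval 116 to 1092) for FGF8, whose wider interval reflects 4 counts with BRD.

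Of the other 9 genes high with BRD+CHIR, 5 have gene names and 4 are clone identifiers. GAD1, an enzyme that makes the transmitter GABA, had 31.4 and 37.7 CPM with BRD+CHIR and no count with BRD (at least 567-fold higher). CDA, cytidine deaminase, had 23.6 and 23.7 CPM with BRD+CHIR, against 0.478 and 0.927 CPM with BRD. TACR1, the receptor of substance P, had 20.3 and 25.4 CPM with BRD+CHIR, against 0 and 0.136 CPM with BRD. H4C12, one of many near-identical histone H4 genes, had 163 and 205 CPM with BRD+CHIR and no count with BRD, and its assignment among its copies is uncertain. ISY1-RAB43, a readthrough of 2 neighbouring genes, had 20.7 and 23.1 CPM with BRD+CHIR and no count with BRD. Reads of a readthrough can be assigned to either neighbour. The clone identifiers AL035078.4, AC245033.1, AC092647.5 and AL132780.3 lay between 20.8 and 80.2 CPM in the BRD+CHIR libraries and at 0.678 CPM or less in the BRD libraries.

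**Figure D2:**
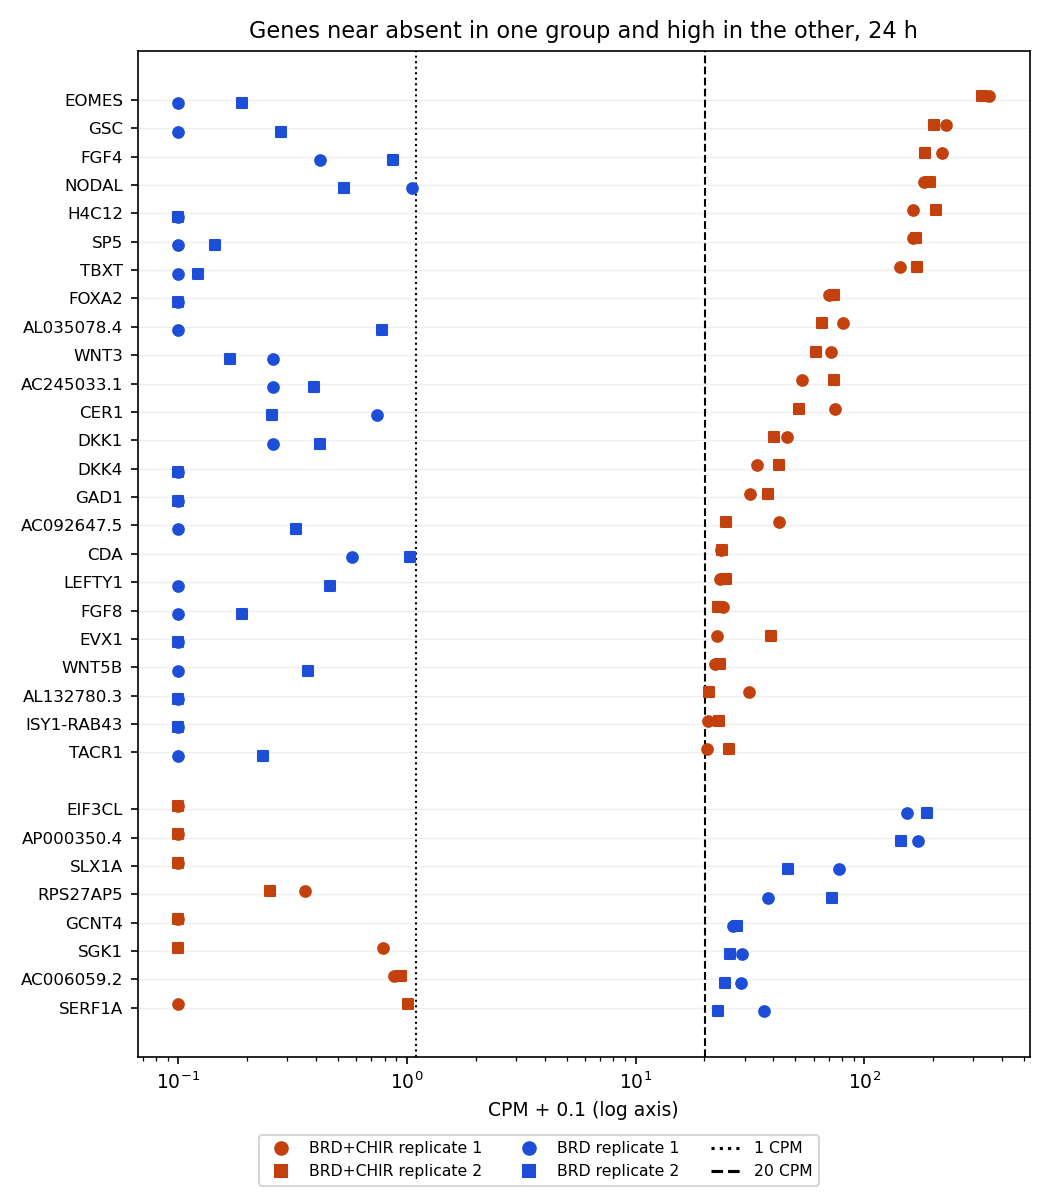
CPM + 0.1 (log axis) of each of the 32 genes in the 2 BRD+CHIR and the 2 BRD libraries of 24 h, with the thresholds of 1 and 20 CPM as lines. EOMES is at 351 and 327 CPM with BRD+CHIR and at 0 and 0.0904 CPM with BRD, and points at the left edge are libraries with no count.

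Since library series and treatment coincide, each gene's level in the other libraries of series 46 was examined. Of the 24 genes, 17 reached 1 CPM in both libraries of at least 1 other group of series 46, and each of the 17 did so in sorted endoderm of 72 h, which had received CHIR on day 1. Some did so at low levels: in series 46 FGF4 had at most 5.56 CPM and CDA at most 6.74 CPM. What part the library series has in the 24 h difference was not tested. EOMES had 199 to 448 CPM, SP5 4.02 to 69.8 CPM and FOXA2 17.4 to 62.1 CPM in the 8 libraries of 72 h. CER1, EOMES, FOXA2, GSC and SP5 met the same thresholds between BRD+CHIR-BRD-BRD endoderm of 72 h and BRD cells of 24 h, both of series 46. Those groups differ in time and sorting as well as in CHIR.

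For 7 of the 24 genes no group of series 46 reached 1 CPM in both libraries: H4C12, AL035078.4, AC245033.1, AC092647.5, WNT5B, ISY1-RAB43 and TACR1. H4C12 had no count in any of the 12 libraries of series 46. AL035078.4 had at most 1.90 CPM in series 46 and 40.9 to 118 CPM in all 18 libraries of series 33 and 38, untreated cells included. WNT5B, by contrast, had 4.08 and 3.00 CPM in untreated cells of 6 h (series 33). ISY1-RAB43 was seen in single libraries of 72 h in series 46, at 22.7 CPM in a BRD+LoAA+CHIR-BRD+LoAA-BRD+LoAA library and at 11.8 CPM in a JNJ+CHIR-JNJ-JNJ library, with no count in the other library of each group. For these 7, as for the rest of the 24, the part of the library series in the difference was not tested.

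**Figure D3:**
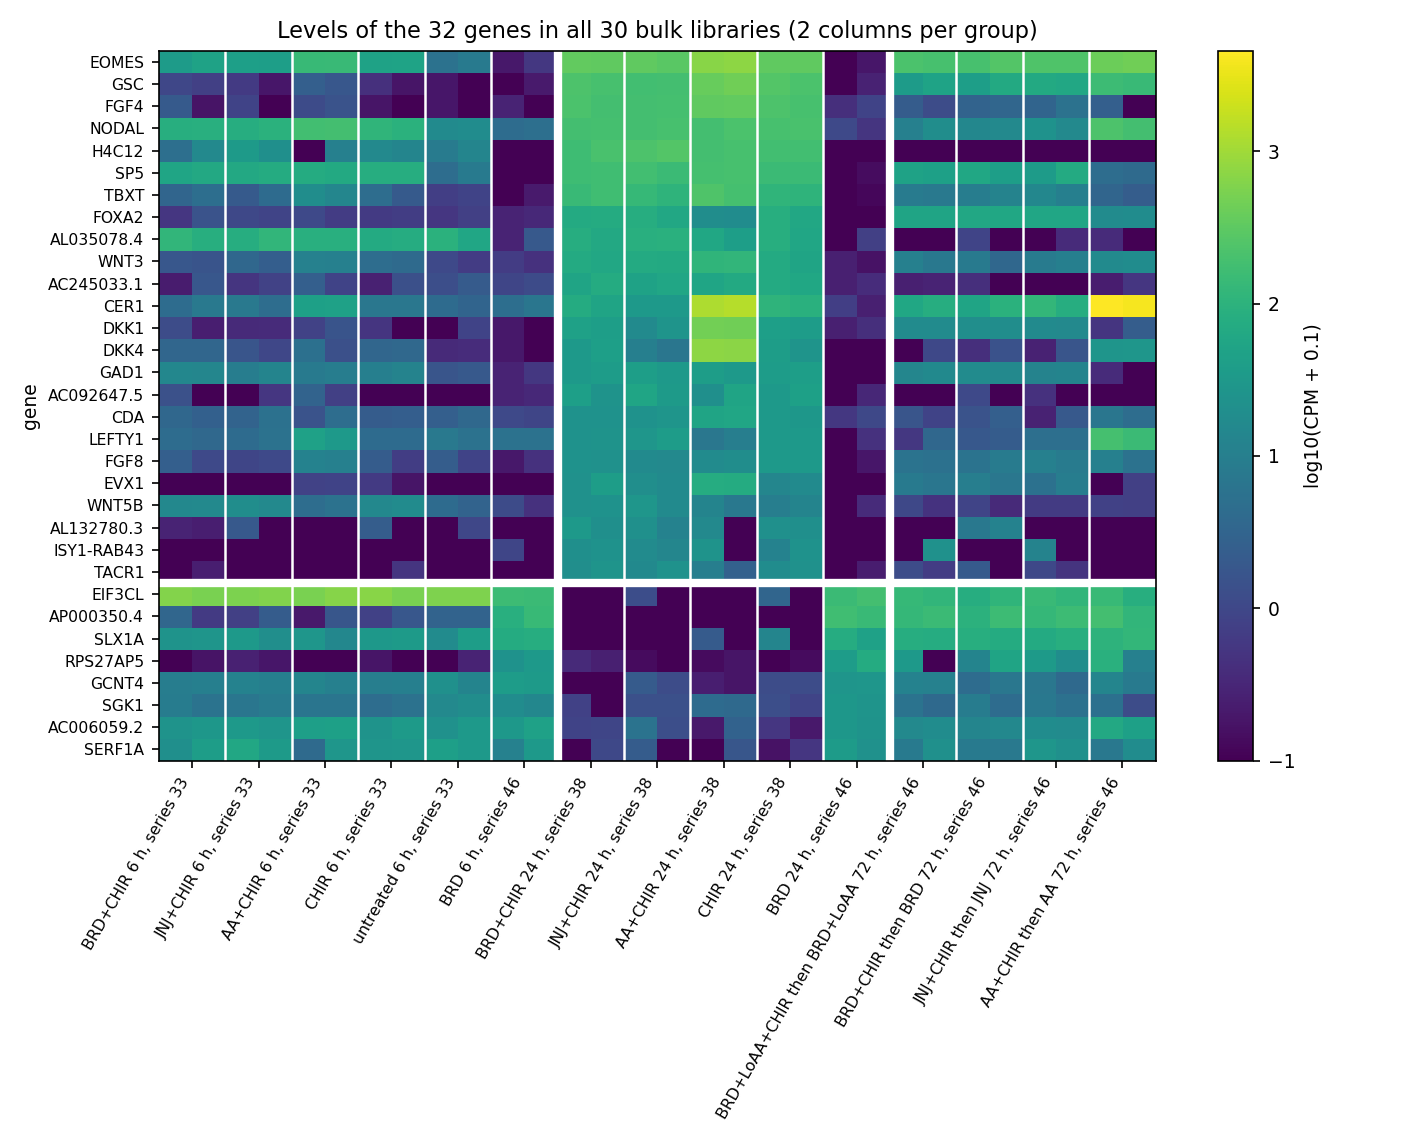
log10(CPM + 0.1) of the 32 genes (rows) in all 30 bulk libraries (2 columns per group, from 6 h at the left to 72 h at the right, with the library series named). The upper 24 rows are dark with BRD at 24 h and mostly bright in the 4 groups of 24 h with CHIR, apart from AL132780.3 and ISY1-RAB43 in AA+CHIR replicate 2, which are at 0 CPM; H4C12 and AL035078.4 are dark in every column of series 46.

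The other arms of 24 h that contained CHIR, all of series 38, expressed all or most of the same genes, some at lower levels. At 1 CPM or more in both libraries were 24 of the 24 with JNJ+CHIR, 22 with AA+CHIR and 24 with CHIR. At the 20 CPM that defined the genes there were 16 with JNJ+CHIR, 17 with AA+CHIR and 20 with CHIR. No gene of the table was near absent in BRD+CHIR and high in CHIR, or the reverse. SP5 had 149 to 204 CPM and NODAL 182 to 217 CPM in the 6 libraries of these arms. With Activin A added in place of BRD, the antagonists had other levels: DKK4 had 727 and 696 CPM and DKK1 461 and 452 CPM with AA+CHIR, and CER1 1209 and 1376 CPM. FOXA2, at 19.2 and 18.6 CPM with AA+CHIR, and LEFTY1, at 7.0 and 9.56 CPM, were below their BRD+CHIR levels in both libraries. These arms were not tested against BRD+CHIR here.

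At 6 h the same pair of treatments was measured in libraries that had no part in choosing the genes, again of different series (33 with BRD+CHIR and 46 with BRD). By edgeR's quasi-likelihood test with Benjamini-Hochberg adjustment over 14875 genes, 12 of the 24 genes were higher with BRD+CHIR at 6 h, 9 did not pass the test and 3 were too low to be tested. Of all genes tested, 53.8% were called, 27.6% higher and 26.3% lower, so a call alone says little in this comparison, and the levels are given with it. The median log2 change of the 21 tested genes was 3.58, beside 0.07 over all genes tested. In 16 of the 24 both BRD+CHIR libraries lay above both BRD libraries, beside 42.9% of all genes tested, and in 1 gene, LEFTY1, both lay below, beside 37.1%. The genes were chosen for near absence in BRD libraries of series 46, and the BRD libraries of 6 h are of that series too. The 21 could also enter the test through a group where they are high. Nothing is therefore read from these counts or from the median.

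SP5, EOMES, NODAL and AL035078.4 were above 20 CPM in both BRD+CHIR libraries of 6 h. SP5 had 54.5 and 65.7 CPM with BRD+CHIR and no count with BRD (at least 375-fold higher), and with EOMES it already met the thresholds of 1 and 20 CPM at this time, as did 0.0373% of all genes. EOMES had 36.7 and 48.2 CPM with BRD+CHIR, against 0.0956 and 0.475 CPM with BRD, a log2 change of 7.24 ± 0.33 (SE, edgeR adjusted p = 3.80e-12). NODAL had 82.0 and 86.3 CPM with BRD+CHIR, against 4.40 and 4.87 CPM with BRD (log2 change 4.16 ± 0.15, edgeR adjusted p = 3.14e-13). Untreated cells of 6 h, of the same series as BRD+CHIR, had 4.44 and 7.94 CPM of SP5, 5.59 and 7.84 CPM of EOMES and 17.2 and 18.0 CPM of NODAL. These lie between the BRD+CHIR and BRD levels for all 3 genes.

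GAD1, with 14.3 and 13.8 CPM with BRD+CHIR against 0.191 and 0.475 CPM with BRD, and WNT5B, with 14.9 and 15.8 CPM against 1.05 and 0.356 CPM, were also higher with BRD+CHIR at 6 h (log2 changes 5.38 ± 0.43 and 4.34 ± 0.38). TBXT, at 3.22 and 4.73 CPM with BRD+CHIR against 0 and 0.119 CPM with BRD, and DKK4, at 3.28 and 3.31 CPM against 0.0956 and 0 CPM, were higher at low levels (log2 changes 5.93 ± 0.89 and 5.68 ± 1.10). WNT3, FGF8 and CDA passed the test with log2 changes of 1.71 to 2.94, and each missed it when a library was left out. The calls on H4C12 and AL035078.4 completed the 12. With BRD+CHIR, H4C12 had 4.86 and 15.8 CPM and AL035078.4 118 and 84.5 CPM. Untreated cells of 6 h, of the same series and without CHIR, had 8.43 and 13.4 CPM of H4C12 and 95.1 and 57.2 CPM of AL035078.4.

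Other streak genes were still low at 6 h. GSC had 0.884 and 0.676 CPM with BRD+CHIR, against 0 and 0.119 CPM with BRD (log2 change 3.58 ± 1.54, edgeR adjusted p = 0.0582). FOXA2 had 0.442 and 1.43 CPM with BRD+CHIR, against 0.191 and 0.237 CPM with BRD (adjusted p = 0.139), and EVX1 had no count in any of these 4 libraries. CER1 and LEFTY1 were already present in both groups. CER1 had 4.35 and 7.51 CPM with BRD+CHIR, against 4.68 and 6.77 CPM with BRD, and the groups overlapped (log2 change 0.02 ± 0.31, adjusted p = 0.958). LEFTY1 had 4.35 and 3.68 CPM with BRD+CHIR, against 5.64 and 5.58 CPM with BRD (log2 change -0.51 ± 0.28, adjusted p = 0.145).

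The BRD libraries of 24 h and 6 h share series 46. In them NODAL had 0.955 and 0.430 CPM at 24 h, against 4.40 and 4.87 CPM at 6 h. CER1 had 0.637 and 0.158 CPM at 24 h, against 4.68 and 6.77 CPM at 6 h, and LEFTY1 had 0 and 0.362 CPM at 24 h, against 5.64 and 5.58 CPM at 6 h. All 3 were lower at 24 h in both libraries, within a series. The change between the times was not tested.

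**Figure D4:**
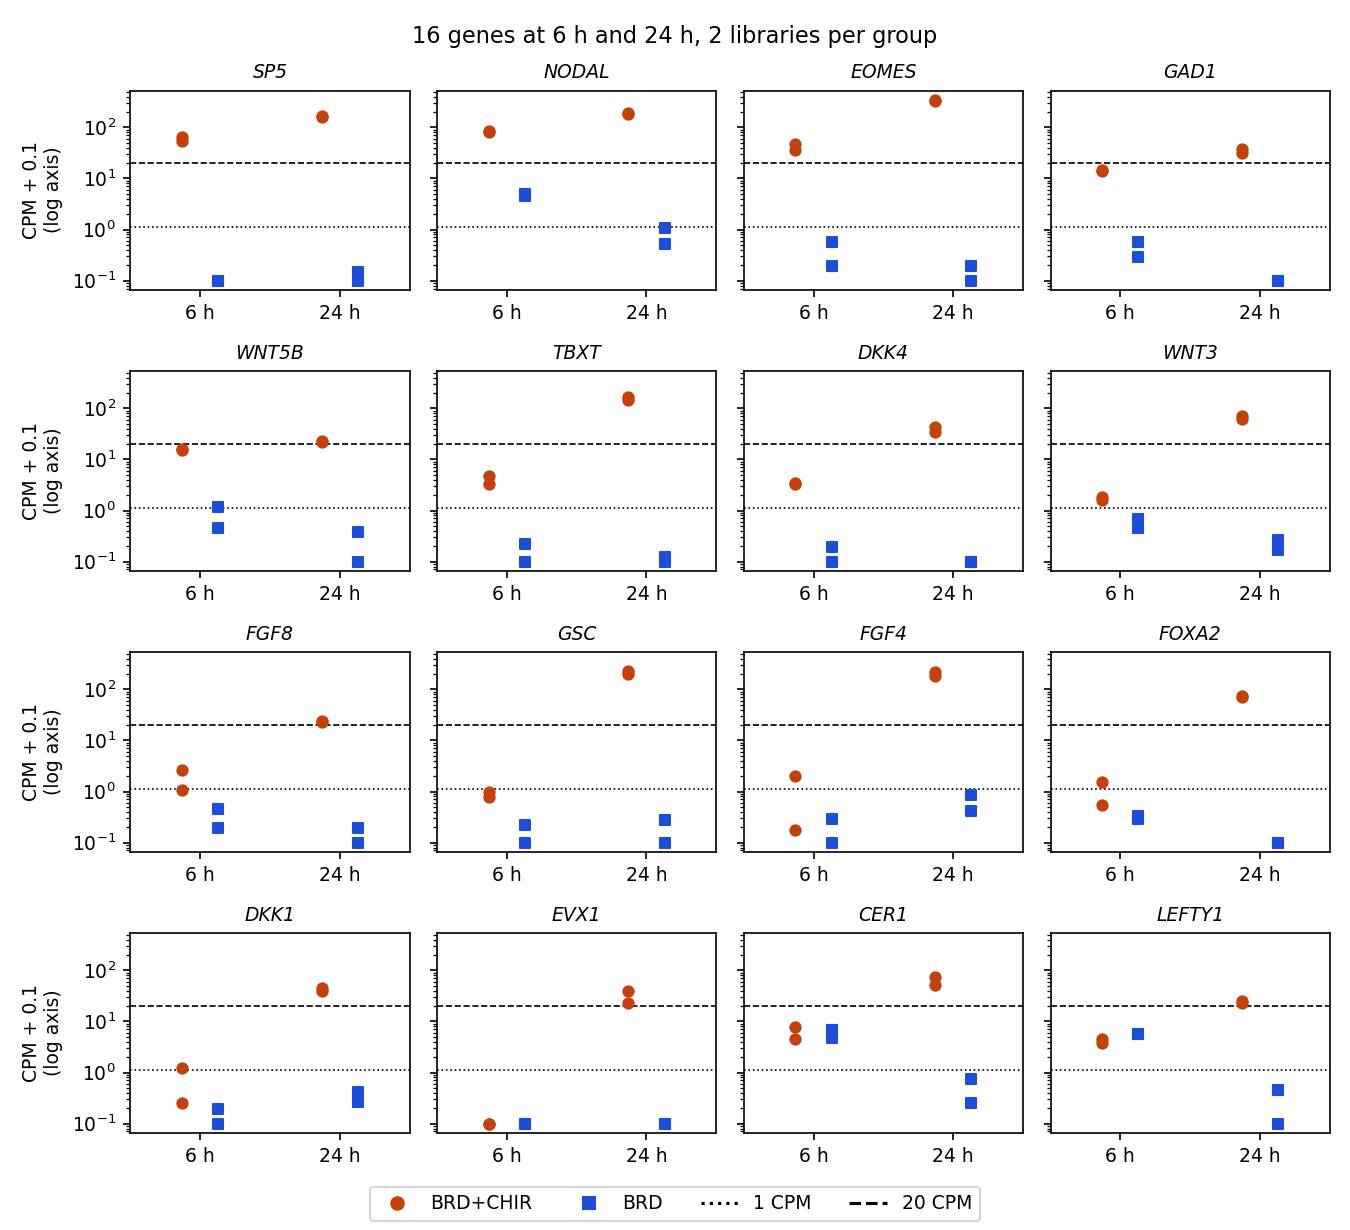
CPM + 0.1 (log axis) of 16 genes with BRD+CHIR (circles) and BRD (squares) at 6 h and 24 h, 2 libraries each, with lines at 1 and 20 CPM. SP5, NODAL and EOMES are apart at 6 h already, GSC, FOXA2 and EVX1 are under 2 CPM in every library of 6 h, and CER1 and LEFTY1 lie together at 6 h and apart at 24 h.

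Of the 8 genes high with BRD, GCNT4 and SGK1 have no near copy in the table and were also expressed in other series. SGK1, a kinase induced by serum and steroid hormones (chromosome 6, 134169246 to 134318112), had 0.689 and 0 CPM with BRD+CHIR, against 29.1 and 25.8 CPM with BRD. GCNT4, an enzyme that branches O-linked sugar chains (chromosome 5, 75025346 to 75030899), had no count with BRD+CHIR, against 26.4 and 27.6 CPM with BRD, at least 333-fold lower. Both were also low in the other arms of 24 h with CHIR, SGK1 at 0.788 to 4.13 CPM and GCNT4 at 0.0804 to 2.10 CPM. At 6 h both were lower with BRD+CHIR by edgeR. SGK1 had 8.90 and 5.79 CPM with BRD+CHIR, against 18.7 and 14.5 CPM with BRD (log2 change -1.20 ± 0.27, edgeR adjusted p = 0.00110). GCNT4 had 9.40 and 10.2 CPM with BRD+CHIR, against 37.7 and 34.7 CPM with BRD (log2 change -1.91 ± 0.23, edgeR adjusted p = 1.30e-06). Untreated cells of 6 h, of the series of BRD+CHIR, had 15.4 and 19.4 CPM of SGK1 and 21.6 and 12.7 CPM of GCNT4, above both BRD+CHIR libraries for each gene.

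Of the other 6 genes high with BRD, 3 have a near copy in the table, 2 are clone identifiers and 1 is a pseudogene. EIF3CL, a copy of the translation factor gene EIF3C, had no count with BRD+CHIR, against 153 and 188 CPM with BRD. EIF3C had 1394 and 1368 CPM with BRD+CHIR, against 319 and 389 CPM with BRD. The sum of this pair was 1394 and 1368 CPM with BRD+CHIR, against 472 and 577 CPM with BRD, the other way from EIF3CL alone. By series, EIF3CL had at most 3.17 CPM in series 38, 522 to 666 CPM in series 33 and 79.3 to 188 CPM in series 46. SERF1A, with 0 and 0.916 CPM with BRD+CHIR against 36.5 and 22.9 CPM with BRD, has the copy SERF1B, and the sum of the pair was 51.0 and 47.7 CPM with BRD+CHIR, against 37.7 and 30.5 CPM with BRD. The sum thus ran the other way from SERF1A alone. SLX1A, a subunit of a DNA repair nuclease, had no count with BRD+CHIR, against 77.5 and 46.3 CPM with BRD; with its copy SLX1B the sum was 16.2 and 14.8 CPM with BRD+CHIR, against 77.8 and 49.97 CPM with BRD. The clone AP000350.4 had 87.3 to 187 CPM in all 12 libraries of series 46 and at most 3.28 CPM in the 18 others. The ribosomal pseudogene RPS27AP5 had at most 0.258 CPM in those 18, and at 6 h it was again high with BRD and near absent with BRD+CHIR, as were 0.0186% of all genes. AC006059.2, with 0.775 and 0.840 CPM with BRD+CHIR against 28.8 and 24.5 CPM with BRD, reached 1 CPM in both JNJ+CHIR libraries of 24 h. At 6 h, of the 8 genes 5 were lower with BRD+CHIR (beside 26.3% of all genes), EIF3CL was higher, and SERF1A and AC006059.2 did not pass the test.

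Near the thresholds, the members with the highest BRD level were NODAL at 0.955 CPM and CDA at 0.927 CPM, and the genes next outside were CALCR and UQCRHL at 1.11 CPM. Members with the lowest BRD+CHIR level were TACR1 at 20.3 CPM and ISY1-RAB43 at 20.7 CPM, and next outside were AP001453.3 at 19.2 CPM and AC009163.5 at 19.1 CPM. Among genes high with BRD, SERF1A (0.916 CPM with BRD+CHIR and 22.9 CPM with BRD) and AC006059.2 (0.840 and 24.5 CPM) were the last inside on either side. Outside were NPTX1 and FOXD3, at 1.03 and 1.21 CPM with BRD+CHIR, and OR6C75 and IGFBP3, at 16.6 and 15.6 CPM with BRD.

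The gene lists were read beside the share of all genes called at 24 h, 19.8% higher and 15.6% lower (35.4% in all) of 15589 tested by edgeR. Members past the thresholds were chosen by the same values, so their calls at 24 h are left out of the counts. Of 20 streak genes 9 were past the thresholds, and of the 11 others 6 were higher with BRD+CHIR and 2 lower. The summed level of all 20 was 2086 and 2075 CPM with BRD+CHIR, against 182 and 190 CPM with BRD. This sum includes the 9 past the thresholds, which were chosen by these values, so nothing is read from it. Of 25 Wnt targets 3 were past the thresholds (SP5, DKK1 and DKK4), and of the 22 others 13 were higher and 1 lower. Of the Nodal and Activin pathway 3 were past them (NODAL, CER1 and LEFTY1), and of the 16 others tested 8 were higher and 3 lower. The summed level of the Nodal and Activin list went the other way, with 2002 and 1955 CPM with BRD+CHIR, against 3202 and 3063 CPM with BRD. TDGF1, the Nodal co-receptor, had 487 and 460 CPM of these sums with BRD+CHIR, against 1582 and 1373 CPM with BRD. Of the FGF and ERK pathway 2 were past the thresholds (FGF4 and FGF8), and of the 20 others 12 were higher and 4 lower.

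At 6 h 27.6% of all genes tested were higher with BRD+CHIR and 26.3% lower. Of 14 streak genes tested 8 were higher with BRD+CHIR and the others did not pass the test, and of 23 Wnt targets 15 were higher and 1 lower. Of 19 Nodal and Activin pathway genes 7 were higher and 5 lower, and of 21 FGF and ERK pathway genes 9 were higher and 9 lower. The median log2 change was 2.36 for the streak list, 1.67 for the Wnt list, -0.03 for the Nodal and Activin list and -0.10 for the FGF and ERK list, beside 0.07 over all genes tested. These lists include members past the thresholds at 24 h, and BRD is of series 46 at both times.

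The counts that follow are again of 24 h, where 19.8% of all genes tested were higher with BRD+CHIR and 15.6% lower. Of 23 pluripotency genes 3 were higher and 12 lower, and of 24 genes of G2 and mitosis 1 was higher and 15 lower. None was past the thresholds in either list. Of the adhesion and matrix genes 17 of 28 tested were higher and 4 lower, of glycolysis and hypoxia genes 12 of 24 and 3, of p53 and stress genes 8 of 22 and 2, of cholesterol synthesis genes 6 of 22 and 5, and of BMP pathway genes 3 of 15 and 2. Of the HOX and CDX genes 7 of 26 are in the table, and 2 of 5 tested were higher. For all of these calls CHIR and the library series cannot be told apart.

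Among the markers, SOX2 was expressed in both groups, at 31.1 and 28.9 CPM with BRD+CHIR, against 402 and 470 CPM with BRD. Other libraries of series 46 had as little as 1.12 CPM of SOX2, in endoderm of 72 h, and untreated cells of 6 h in series 33 had 267 and 322 CPM. At 6 h SOX2 had 191 and 190 CPM with BRD+CHIR, against 267 and 265 CPM with BRD (log2 change -0.51 ± 0.09, edgeR adjusted p = 6.69e-05). POU5F1 had 891 and 903 CPM with BRD+CHIR, against 561 and 536 CPM with BRD, and NANOG had 147 and 169 CPM with BRD+CHIR, against 84.2 and 90.7 CPM with BRD. The stem cell factors thus did not move as a group. AXIN2, a feedback inhibitor of Wnt signalling, had 76.8 and 101 CPM with BRD+CHIR, against 24.8 and 34.6 CPM with BRD, and at 6 h it had 81.9 and 78.8 CPM against 22.3 and 21.6 CPM (log2 change 1.84 ± 0.12, edgeR adjusted p = 6.03e-10).

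**Figure D5:**
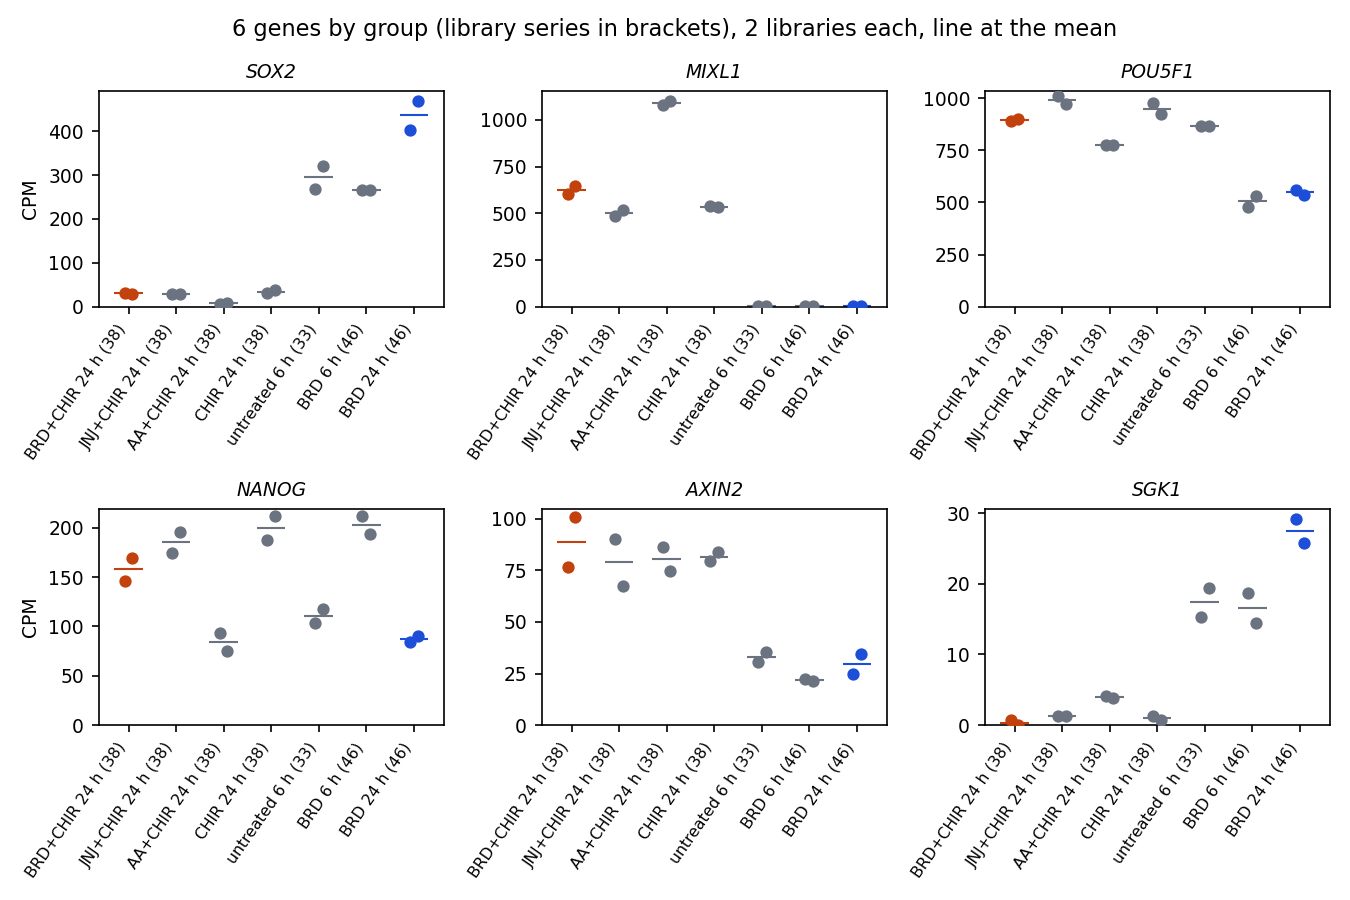
CPM of SOX2, MIXL1, POU5F1, NANOG, AXIN2 and SGK1 in the groups of 24 h and in untreated and BRD cells of 6 h, 2 libraries each, with a line at the mean and the library series in brackets. SOX2 is at 31.1 and 28.9 CPM with BRD+CHIR and at 402 and 470 CPM with BRD, and is low in every arm of 24 h with CHIR.

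The labels name the cells as derived definitive endoderm, and at 24 h a defining endoderm marker was missing in both groups. SOX17 had no count with BRD+CHIR, against 0.159 and 0 CPM with BRD, while the endoderm of 72 h had 227 to 417 CPM. FOXA2 and CER1 of the endoderm list were past the thresholds, and of the 13 others tested 3 were higher with BRD+CHIR and the rest did not pass the test. Beside this and the list counts below, 19.8% of all genes tested at 24 h were higher and 15.6% lower. The summed level of the list, FOXA2 and CER1 included, was 654 and 602 CPM with BRD+CHIR, against 416 and 422 CPM with BRD. Its largest member was EPCAM, at 291 and 294 CPM with BRD+CHIR, against 254 and 248 CPM with BRD. CXCR4 of this list had no count with BRD+CHIR, against 1.75 and 1.04 CPM with BRD. GATA6 had 22.2 and 17.5 CPM with BRD+CHIR, against 0 and 0.0678 CPM with BRD, just short of the upper threshold. Markers of other cell types that the unsorted dish could hold were measured too. Of the early mesoderm list, 3 of 14 genes tested were higher and the others did not pass the test (summed level 236 and 243 CPM with BRD+CHIR, against 77.7 and 92.4 CPM with BRD). Most of these sums was KDR, a receptor of vascular progenitors, at 202 and 212 CPM with BRD+CHIR, against 56.7 and 72.4 CPM with BRD. In that list 7 of the 17 genes in the table were under 1 CPM in all 4 libraries, and MESP1, a defining gene of early mesoderm, had no count in any of them. Of the neural list, 2 of 20 were higher and 3 lower, with a sum of 1210 and 1175 CPM with BRD+CHIR, against 527 and 632 CPM with BRD. Much of the BRD+CHIR sum was CDH2, a cadherin that streak cells share, at 664 and 599 CPM with BRD+CHIR, against 73.5 and 84.3 CPM with BRD. NES of this list was also higher in both libraries, at 242 and 277 CPM with BRD+CHIR, against 97.9 and 159 CPM with BRD. SOX3 and OTX2 went the other way from the sum. SOX3 had 0.560 and 2.44 CPM with BRD+CHIR, against 31.99 and 39.3 CPM with BRD. OTX2 had 51.6 and 39.9 CPM with BRD+CHIR, against 117 and 85.3 CPM with BRD. Of the amnion and trophoblast list, 2 of 8 were higher and 2 lower (sum 374 and 362 CPM with BRD+CHIR, against 221 and 233 CPM with BRD, mostly KRT18). In it 6 of the 12 genes in the table were under 1 CPM in all 4 libraries, among them GATA3, GATA2, TFAP2A, ISL1 and HAND1 at 0.159 CPM or less. Others were expressed: GABRP had 12.9 and 18.9 CPM with BRD+CHIR, against 15.4 and 20.1 CPM with BRD, and TFAP2C had 4.52 and 13.5 CPM with BRD+CHIR, against 9.39 and 9.07 CPM with BRD. KRT7 had 0.172 and 0.840 CPM with BRD+CHIR, against 9.39 and 9.36 CPM with BRD, and IGFBP3 had 0.517 and 0.916 CPM with BRD+CHIR, against 15.6 and 18.0 CPM with BRD. The part of these markers in the results above was not tested.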

How the data were processed

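Bulk RNA of H1 cells was made into stranded total RNA libraries and read single-end at 85 bases, per the labels' protocols. The authors deposited expected counts per gene for 16103 genes in 30 libraries. Per the submitters' processing notes the tools listed are Salmon 1.4.0, limma 3.48.1 and edgeR 3.34.0, on GRCh38, and which tool made which step is not given in the sources used here. Single-cell files were not used. All columns were matched to samples, and 0 were left unassigned.

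The deposited expected counts were rounded to whole numbers, and the 10 MTRNR2L genes were left out, which left 16093. CPM uses TMM scaling over the 30 libraries. Differences were tested by the two-sided quasi-likelihood F-test of edgeR 4.0.16 under R 4.3.3, on genes passing filterByExpr and called at 0.05 after Benjamini-Hochberg adjustment, with 1 fit over the 10 libraries of 24 h (5 residual degrees of freedom) and 1 over the 12 of 6 h (6). The common biological coefficient of variation was 0.407 at 24 h and 0.139 at 6 h. DESeq2 1.42.0 was an alternative. The scripts were tested on simulated data. SE was derived as log2 change over the square root of F. Ratios of pooled counts carry exact 95% intervals that cover counting error only. The p-values set the change against a spread estimated over all libraries of the fit, and any difference between library series is part of that change.

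All 32 genes chosen at 24 h passed filterByExpr; since they could pass through the group where they are high, that count supports nothing. The members and the 16 lists were chosen with earlier results of these data known. Named were list members past the thresholds, up to 15 other genes in each direction by level without clone identifiers, 4 markers and 9 stage genes, and 2 neighbours of each threshold. Clone identifiers, near copies, EIF3C, GATA6, TDGF1, KDR, CDH2, NES, SOX3, OTX2, EPCAM, CXCR4, KRT18, MESP1 and the amnion markers were named after their values were seen. Gene coordinates are from GENCODE release 29 on GRCh38. The numbers of the replicates do not pair the libraries: deviations of same-numbered libraries from their group means had a correlation of 0.0023 at 24 h and -0.014 at 6 h.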

Additional observations from a re-analysis of the deposited data

Results flagged for a closer look

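Among the genes named here, 3 had both BRD+CHIR libraries on one side of both BRD libraries at 24 h and on the other side at 6 h. LEFTY1 had a log2 change of 6.31 at 24 h, against -0.51 at 6 h, where it did not pass the test (edgeR adjusted p = 0.145). EIF3CL had -15.05 at 24 h, a fitted value against libraries without a count and so no bound, against 1.89 at 6 h. NANOG had 0.84 at 24 h, against -0.54 at 6 h. The difference between the times was not tested, and the library series of BRD+CHIR is 38 at 24 h and 33 at 6 h.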

How the results depend on the processing

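The number of genes high with BRD+CHIR and near absent with BRD, 24, was 38 with high set at 10 CPM and 12 at 50 CPM. Leaving out 1 library at a time gave 26 to 30. It can only loosen the rule, so that each set includes the 24 was fixed in advance. The number high with BRD and near absent with BRD+CHIR, 8, was 5 with near absent set under 0.5 CPM, 16 under 2 CPM, 16 with high set at 10 CPM and 2 at 50 CPM. Leaving out a library, which again can only add genes, gave 8 to 16, with 16 without BRD+CHIR replicate 1 and 13 without BRD+CHIR replicate 2. Of the 24, 19 were left with near absent set under 0.5 CPM (AL035078.4, CDA, CER1, FGF4 and NODAL dropped out) and 21 with the MTRNR2L genes kept (without AL132780.3, ISY1-RAB43 and TACR1). NODAL dropped out under CPM by library total and TACR1 under DESeq2 size factors, leaving 23 each, and there were 35 under 2 CPM, with MIXL1. The replicate numbers share only a number. With the replicate block, 3066 genes were higher and 2428 lower at 24 h, against 3082 and 2435 without it, and 4046 higher and 3875 lower at 6 h, against 4104 and 3906. At 24 h SERF1A lost its call under DESeq2 and without BRD+CHIR replicate 1. At 6 h WNT3 lost its call without BRD+CHIR replicate 1 or either BRD replicate, CDA likewise, and FGF8 without BRD+CHIR replicate 1 or BRD replicate 1, while AC006059.2 gained one under 6 alternatives. Among the genes chosen at 24 h, the markers and the stage genes, no log2 change called in either fit changed sign. The log2 change of 5 genes without a call at 6 h did: CER1 (0.02) reached -0.42, FGF4 (3.16) -0.42, SERF1A (0.45) -0.15, AC245033.1 (-0.10) 0.81 and AC092647.5 (1.59) -4.32, each with 1 library left out, and CER1 was also -0.01 under DESeq2 and its size factors. With 2 libraries a group and a BRD library of 6.75 M counts, levels under 0.159 CPM could not be told from 0 in that library.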
